A study of Mus musculus with 13 samples.

Results

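The messenger RNA of the major histocompatibility complex (MHC) class I genes of the mouse was followed in purified kidney glomeruli, the filtering units of the kidney. The set was a fixed list of 10 genes out of the 46958 in the count table: the classical heavy chains H2-K1 and H2-D1, the Q-region heavy chains H2-Q1, H2-Q2, H2-Q4, H2-Q6 and H2-Q7, the T-region heavy chains H2-T22 and H2-T23, and B2m, the light chain. The list was chosen by the measured levels of H2-Q6 and H2-Q7, which were known to be almost lost in the DH-LMP2A genotype, so for these 2 genes the difference between that genotype and the others is a description and carries no test. All 10 genes passed the filter on low counts, which kept 16738 genes.

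The 13 libraries came from mice aged 6 months on a mixed C57/BL6x129/SVxBALB/c background, shared by all groups. There were 4 libraries of kFRA (LCDD) mice, 4 of DH-LMP2A mice and 5 of wild type (WT) mice. LCDD stands for light chain deposition disease, in which monoclonal immunoglobulin light chains settle in the kidney. The labels give DH-LMP2A and kFRA as names alone, with no promoter, allele or cell type that carries them. Each library pooled 3 mice, except WT replicates 3, 4 and 5, which were 1 mouse each. Replicates are numbered in order of deposition within a genotype. The sample titles carry a code with 4 values that libraries of different genotypes share and whose meaning is not given in the sources used here.

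Class I molecules carry peptides from inside the cell to its surface, where T cells and natural killer cells read them. Each is a heavy chain that needs the light chain beta-2 microglobulin (B2m) and, for most, a peptide delivered by the TAP transporter. The classical chains are made by nearly all cells, and interferons raise them together with the genes that cut and load the peptides. H2-Q6 and H2-Q7 encode Qa-2, a nonclassical molecule that is mostly held in the membrane by a lipid anchor and whose amount is known to differ between inbred mouse strains.

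The stretches of 250 bases before the annotated starts of H2-K1, H2-Q4, H2-Q6 and H2-Q7 are printed to show how alike the regulatory sequences of the lost Qa-2 genes and of the genes that were not lost are in the reference genome. They come from RefSeq on the build GRCm38.p6, where 9 of the 10 genes had an entry, all but H2-Q1. Capitals mark 3 motifs searched on both strands: GGGATTCCC, a kappa B site, TTTCACTT, a core of the interferon response element, and CCAAT, the CCAAT box, which reads ATTGG on the other strand.
H2-K1, chr17:34000334-34000583, minus strand: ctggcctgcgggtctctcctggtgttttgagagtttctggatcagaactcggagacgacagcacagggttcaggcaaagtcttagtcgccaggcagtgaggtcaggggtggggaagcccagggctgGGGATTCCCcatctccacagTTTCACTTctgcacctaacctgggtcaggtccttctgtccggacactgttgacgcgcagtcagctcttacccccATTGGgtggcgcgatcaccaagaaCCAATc
H2-Q4, chr17:35379367-35379616, plus strand: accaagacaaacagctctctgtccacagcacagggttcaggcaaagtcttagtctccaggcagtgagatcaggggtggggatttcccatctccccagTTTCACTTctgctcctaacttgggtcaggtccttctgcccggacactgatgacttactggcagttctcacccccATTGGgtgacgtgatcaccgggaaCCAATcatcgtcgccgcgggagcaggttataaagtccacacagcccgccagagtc
H2-Q6, chr17:35424600-35424849, plus strand: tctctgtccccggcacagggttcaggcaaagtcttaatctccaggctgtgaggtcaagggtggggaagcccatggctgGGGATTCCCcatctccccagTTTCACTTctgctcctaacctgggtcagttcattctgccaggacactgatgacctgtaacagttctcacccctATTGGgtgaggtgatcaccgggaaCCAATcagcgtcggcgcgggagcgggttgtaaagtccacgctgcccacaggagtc
H2-Q7, chr17:35438905-35439154, plus strand: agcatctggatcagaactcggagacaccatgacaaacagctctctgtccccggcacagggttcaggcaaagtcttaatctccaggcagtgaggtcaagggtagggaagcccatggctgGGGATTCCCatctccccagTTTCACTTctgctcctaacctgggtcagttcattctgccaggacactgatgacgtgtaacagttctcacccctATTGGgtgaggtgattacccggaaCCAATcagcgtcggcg

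The 250-base windows of H2-Q6 and H2-Q7 were 97.2% identical over 211 aligned columns. Both hold the kappa B letters, the interferon response core and 2 CCAAT boxes, as do H2-K1 and H2-D1. H2-Q4 was 82.9% identical to H2-Q6 over 251 columns and holds the interferon response core but not the exact letters GGGATTCCC. It reads gggatttccc in that stretch, a form the search did not cover, so a kappa B site is not shown to be missing there. Over 32851 promoter windows of the same length, 0.301% hold GGGATTCCC, 1.36% hold TTTCACTT and 33.8% hold CCAAT. H2-T22 holds the interferon response core, while the windows of H2-T23, H2-Q2 and B2m hold only CCAAT of the 3 motifs. Only exact matches were searched, so a window without one, such as that of B2m, may hold another form of the same site. These letters are from the reference strain, the mice are of mixed background, and a match is not a measured binding site.

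Libraries held 16687509 to 30587890 counts. Levels are given as CPM, counts relative to the library total after scaling with edgeR's TMM factors, and comparisons between genes use CPM per kilobase of exon. Summed markers of podocytes, the filter cells of the glomerulus, ranged from 6880 to 32368 CPM, against 86.1 to 2727 CPM for proximal tubule, and the podocyte gene Nphs1 was found in every library. WT replicate 2 stood apart: it was the highest WT library for 26 of 26 interferon response genes and for 8 of the 10 class I genes. LCDD replicate 1 was the highest LCDD library for 23 of those 26 and for 8 of the 10, and DH-LMP2A replicate 2 was the lowest of its genotype for 10 of 10. At most 1 count of the Y-linked Ddx3y was found in 4 of 5 WT libraries. This held for 0 of 4 LCDD and 0 of 4 DH-LMP2A libraries, so comparisons with WT also set different sex compositions side by side. Sex composition differed between LCDD and DH-LMP2A libraries too. LCDD replicate 3 had 9 counts of Xist, a transcript of female cells, and 1861 of Ddx3y. DH-LMP2A replicate 3, of the same title code, had 17524 and 435. The part of sex in the results was not tested in any comparison.

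**Figure D1:**
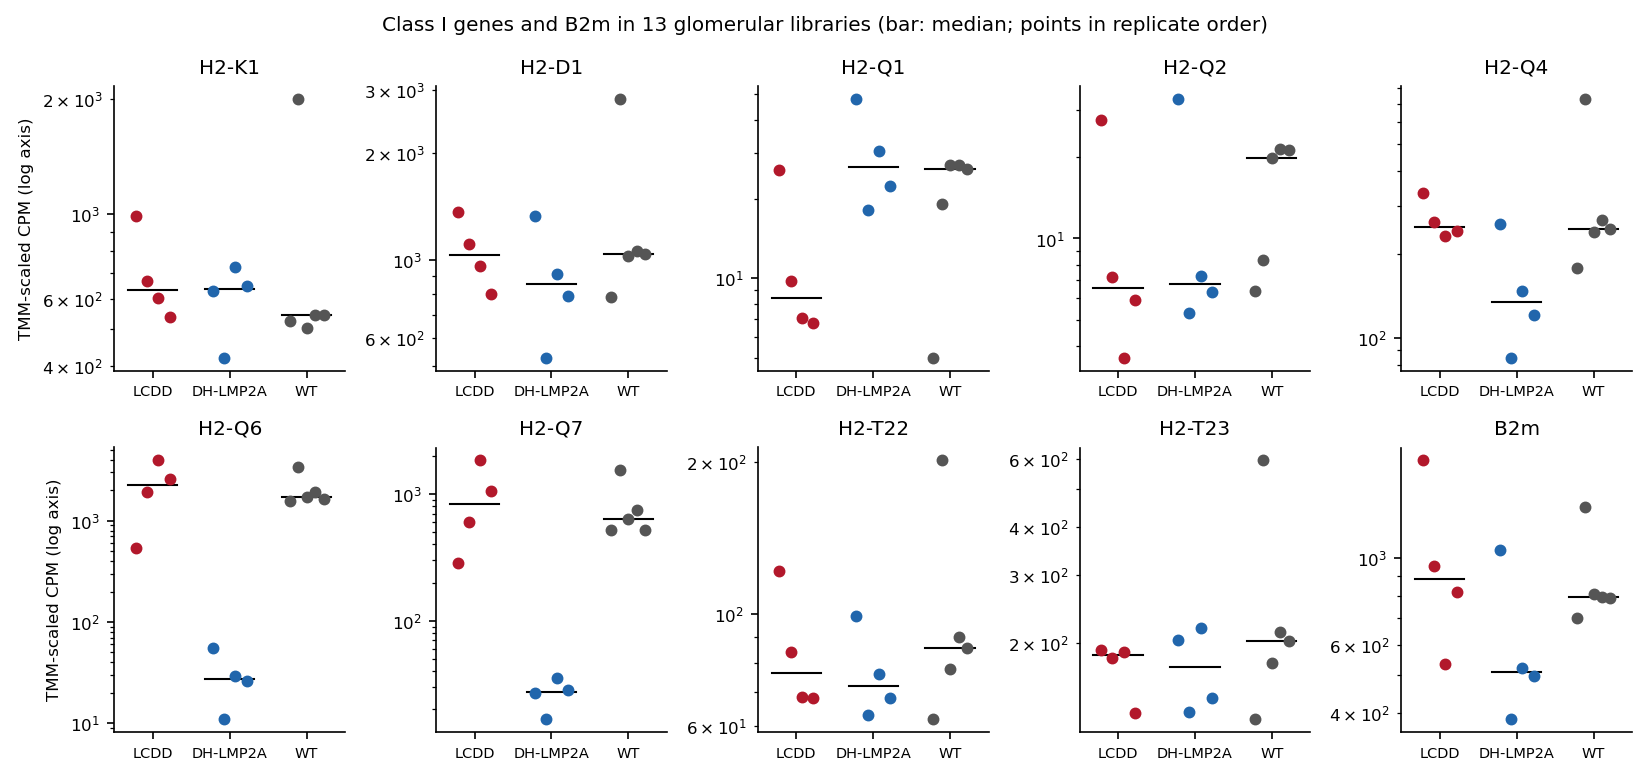
Level of each of the 10 genes in each library (points, in replicate order; CPM on a log axis, with its own range in each panel), by genotype, with the group median as a bar. H2-Q6 and H2-Q7 are separated in DH-LMP2A, while the other 8 genes overlap between genotypes and WT replicate 2 lies high in most panels.

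The Qa-2 genes H2-Q6 (chromosome 17, 35424850 to 35430055) and H2-Q7 (chromosome 17, 35439155 to 35443773) lie side by side. H2-Q6 was at 543, 1915, 3941 and 2562 CPM in LCDD replicates 1 to 4. It was at 55.7, 10.9, 29.2 and 26.1 CPM in DH-LMP2A and at 1584, 3379.6, 1711, 1934 and 1644 CPM in WT. Every DH-LMP2A library lay below every other library, and the lowest of the others was LCDD replicate 1. The mean of H2-Q6 was 2240.1 ± 1412 CPM (SD, n = 4) in LCDD, 30.5 ± 18.6 CPM (SD, n = 4) in DH-LMP2A and 2050.3 ± 755 CPM (SD, n = 5) in WT.

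H2-Q7 was at 285, 604, 1838 and 1049 CPM in LCDD replicates 1 to 4. It was at 26.7, 16.7, 35.5 and 28.5 CPM in DH-LMP2A and at 521, 1536, 632, 747 and 524 CPM in WT. The same library order appeared as for H2-Q6 in LCDD, with replicate 1 lowest and replicate 3 highest. Reads were still assigned to both genes in every DH-LMP2A library, from 294 to 1489 counts for H2-Q6 and from 450 to 714 for H2-Q7.

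As a description, the fitted log2 fold change of LCDD over DH-LMP2A was 6.20 ± 0.67 (SE) for H2-Q6 and 5.14 ± 0.59 (SE) for H2-Q7. That of DH-LMP2A over WT was -6.07 ± 0.66 (SE) for H2-Q6 and -4.88 ± 0.58 (SE) for H2-Q7. The 2 comparisons share the DH-LMP2A libraries. Under each of the 4 title codes the LCDD library lay above the DH-LMP2A library, by 3.28 to 7.45 on the log2 scale for H2-Q6 and by 3.41 to 5.69 for H2-Q7, and the smallest difference was the one under the first code, which holds LCDD replicate 1. Without the 3 libraries of that code the difference of H2-Q6 was 6.996. The rule used these contrasts, so nothing is read from the non-overlap of these 2 genes, which 7.62% of all tested genes show between LCDD and DH-LMP2A and 4.97% between DH-LMP2A and WT.

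LCDD against WT was not used to choose the genes and could be tested. H2-Q6 differed by 0.13 ± 0.51 (SE) on the log2 scale (edgeR quasi-likelihood adjusted p = 0.974) and H2-Q7 by 0.25 ± 0.47 (SE; edgeR adjusted p = 0.931). The groups overlapped for both genes. The LCDD libraries spread more widely than the WT libraries: LCDD replicate 1 lay below, and LCDD replicate 3 above, every WT library for both genes.

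Within LCDD the order of the libraries by H2-Q6 was also their order by the summed podocyte markers, which were 6880, 12587, 29677 and 24674 CPM in replicates 1 to 4. It was the exact reverse of their order by summed proximal tubule markers (1309, 1288, 445 and 563 CPM). The summed interferon response genes ran in that reverse order too (1986, 1413, 1080 and 1105 CPM). In DH-LMP2A the podocyte markers summed to 15337 to 30274 CPM, inside the range of the other genotypes, beside H2-Q6 levels of at most 55.7 CPM. There replicate 1 had the lowest podocyte sum and the highest H2-Q6 level. In bulk RNA, fewer cells of a type and less RNA per cell cannot be told apart. The part of podocyte content, tubule content or interferon response in the spread of H2-Q6 and H2-Q7 within LCDD was not tested.

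H2-Q6 and H2-Q7 together took 14.6%, 43.5%, 69.0% and 58.1% of the summed CPM of the 10 genes in LCDD replicates 1 to 4. They took 1.66% to 2.39% in DH-LMP2A and 38.9% to 47.1% in WT. The share in DH-LMP2A was therefore below that of every other library, whereas the summed level of the other 8 genes, 1637 to 3647 CPM in DH-LMP2A, overlapped with 2595 to 4830 CPM in LCDD and 2390 to 7737 CPM in WT. The ratio of H2-Q6 to H2-Q7 counts was 2.09, 0.653, 0.822 and 0.914 in DH-LMP2A replicates 1 to 4, against 1.90 to 3.17 in LCDD and 2.20 to 3.14 in WT. Only DH-LMP2A replicate 1 had a ratio inside the range of the other genotypes.

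**Figure D2:**
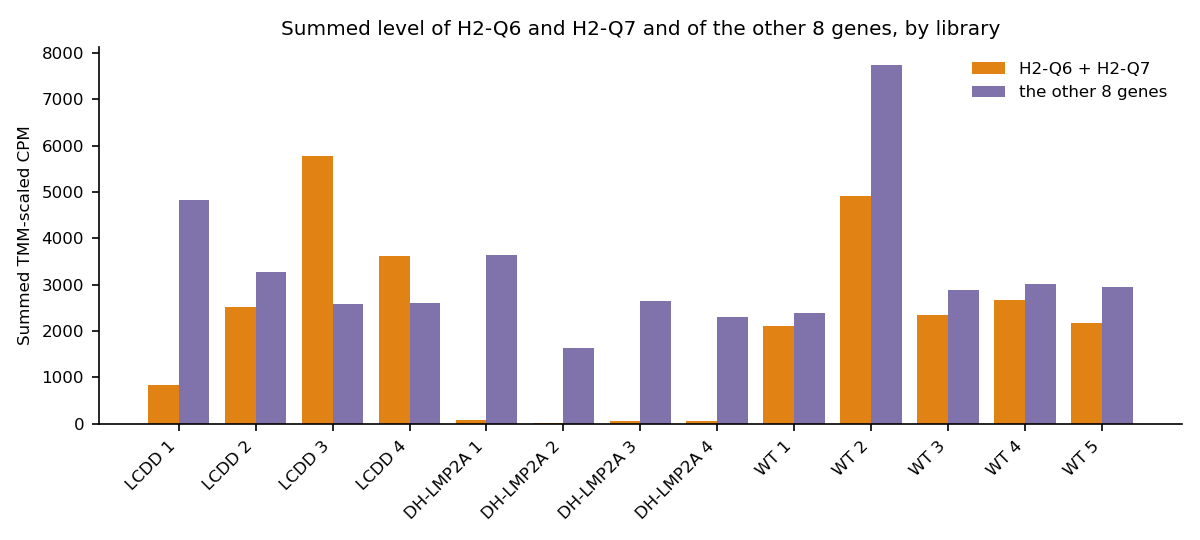
Summed CPM of H2-Q6 and H2-Q7 (orange bars) and of the other 8 genes (purple bars) in each of the 13 libraries, on a linear axis from 0. The orange bars are close to 0 in the 4 DH-LMP2A libraries, and WT replicate 2 has the highest purple bar at 7737 CPM.

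How reads were divided between near-identical class I genes bears on all of these levels. Of the 75-base windows in annotated transcripts, 21.1% of those of H2-Q6 occur word for word in another gene, 9.80% of them in H2-Q7, and 16.95% of those of H2-Q7 do, 8.88% in H2-Q10. The share was 40.0% for H2-T22, 25.2% with the antisense gene A930015D03Rik and 15.7% with H2-T10. For H2-Q4 it was 20.7%, 13.4% with the antisense gene Gm11131 and 3.43% with H2-Q6. It was 10.9% for H2-Q1, 8.07% for H2-Q2, 5.91% for H2-T23, 5.56% for H2-D1, 3.10% for H2-K1 and 0 for B2m. The handling of reads with several matches and the strand setting are not given in the sources used here, and the reference holds 1 haplotype. Values of the Q genes and H2-T22 are therefore uncertain between neighbours, and those of H2-Q4, H2-T22 and H2-T23, which overlap antisense genes, and of B2m, which overlaps Patl2, may include reads of the other strand.

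The other 8 genes were then compared between the genotypes. At an adjusted p under 0.05, edgeR's quasi-likelihood test called 0 of 8 between LCDD and DH-LMP2A, where it called 2.00% of all genes tested. It called 0 of 10 between LCDD and WT, against 1.84% of all genes, and 0 of 8 between DH-LMP2A and WT, against 0.627%. DESeq2 also called 0 in each comparison, and an unadjusted edgeR p under 0.05 was reached by 1, 0 and 1 of these genes in the same order, beside 2193, 2002 and 2085 of all 16738 genes. None of the 8 genes had groups that did not overlap, which 7.62%, 4.59% and 4.97% of all tested genes showed. At such shares 8 genes would hold few calls, so a count of 0 is no result about these genes, and it does not show that their levels were equal.

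The 3 Q-region genes outside Qa-2 did not share 1 pattern. H2-Q4 (chromosome 17, 35379617 to 35385290) was at 334, 261, 232 and 243 CPM in LCDD, at 258, 84.5, 148 and 121 CPM in DH-LMP2A and at 178, 729, 242, 266 and 248 CPM in WT. The 3 lowest libraries of all were DH-LMP2A replicates 2 to 4, and DH-LMP2A replicate 1 lay among the others. Its log2 fold change was 0.81 ± 0.42 (SE) for LCDD over DH-LMP2A (edgeR adjusted p = 0.453) and -1.12 ± 0.41 (SE) for DH-LMP2A over WT (edgeR adjusted p = 0.277). The LCDD library lay above the DH-LMP2A library under 4 of 4 title codes, by 0.37 to 1.63. Over all alternatives the adjusted p of DH-LMP2A against WT ran from 0.0576 to 0.559.

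H2-Q1 (chromosome 17, 35320405 to 35325099) was at 25.8, 9.75, 7.06 and 6.78 CPM in LCDD, at 48.0, 18.1, 30.5 and 22.4 CPM in DH-LMP2A and at 4.98, 19.2, 26.9, 27.0 and 26.1 CPM in WT. LCDD replicates 2 to 4 and WT replicate 1 formed the low end, and LCDD replicate 1 lay among the DH-LMP2A libraries. The log2 fold change of LCDD over DH-LMP2A was -1.27 ± 0.54 (SE; edgeR adjusted p = 0.323), with LCDD lower under 4 of 4 codes, by -2.10 to -0.89. That of LCDD over WT was -0.75 ± 0.51 (SE; edgeR adjusted p = 0.665). Without the 3 libraries of the first title code, an alternative added after the data were seen, H2-Q1 passed the edgeR test as lower in LCDD than in DH-LMP2A (-1.58, adjusted p = 0.00686) and than in WT (-1.65, adjusted p = 0.00580). That setting leaves out the highest LCDD library, the highest DH-LMP2A library and the lowest WT library for H2-Q1. The 2 calls therefore lend no support.

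H2-Q2 (chromosome 17, 35342242 to 35346762) was at 27.6, 7.19, 3.61 and 5.92 CPM in LCDD, at 32.9, 5.30, 7.25 and 6.36 CPM in DH-LMP2A and at 6.37, 8.34, 19.9, 21.4 and 21.3 CPM in WT. In LCDD and in DH-LMP2A replicate 1 was the high library, and in WT the 3 single-mouse libraries were above both pools. The log2 fold change was -0.23 ± 0.71 (SE) for LCDD over DH-LMP2A (edgeR adjusted p = 0.931) and -0.48 ± 0.68 (SE) for LCDD over WT (edgeR adjusted p = 0.898). Without the libraries of the first code it was -1.66 for LCDD over WT (edgeR adjusted p = 0.0401). That setting leaves out the highest LCDD and the lowest WT library for H2-Q2, so the call lends no support.

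The classical heavy chains, which present most peptides to cytotoxic T cells, differed by less than their spread. H2-K1 (chromosome 17, 33996017 to 34000333, minus strand) was at 988, 667, 601 and 536 CPM in LCDD, at 627, 419.9, 727 and 647 CPM in DH-LMP2A and at 526, 2001, 503, 543 and 544 CPM in WT. WT replicate 2 was the highest of the 13, and the other 4 WT libraries lay within 503 to 544 CPM. The log2 fold change of H2-K1 was 0.21 ± 0.43 (SE) for LCDD over DH-LMP2A (edgeR adjusted p = 0.890) and -0.44 ± 0.41 (SE) for DH-LMP2A over WT (edgeR adjusted p = 0.692). For LCDD over WT it was -0.24 ± 0.41 (SE; edgeR adjusted p = 0.925) and changed sign without WT replicate 2, to 0.36.

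H2-D1 (chromosome 17, 35262730 to 35267499) was at 1359, 1106, 959 and 801 CPM in LCDD, at 1329.7, 528, 911 and 791 CPM in DH-LMP2A and at 783, 2829.9, 1020.4, 1053 and 1035 CPM in WT. Replicate 1 was highest in LCDD and in DH-LMP2A and lowest in WT, and WT replicate 2 was again the highest library. The log2 fold change of H2-D1 was 0.25 ± 0.39 (SE) for LCDD over DH-LMP2A (edgeR adjusted p = 0.845), and -0.35 ± 0.37 (SE) for LCDD over WT (edgeR adjusted p = 0.834). For DH-LMP2A over WT it was -0.59 ± 0.37 (SE; edgeR adjusted p = 0.545). The ratio of H2-K1 to H2-D1 counts ran from 0.472 to 0.818 over the 13 libraries and overlapped between all genotypes.

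B2m (chromosome 2, 122147686 to 122153083), the light chain shared by all class I heavy chains, was at 1782, 953, 534 and 816 CPM in LCDD, at 1049, 385, 522 and 498 CPM in DH-LMP2A and at 703, 1353, 809.8, 796 and 789 CPM in WT. LCDD replicate 3, the highest library for H2-Q6, was the lowest LCDD library for B2m. The log2 fold change of B2m was 0.74 ± 0.38 (SE) for LCDD over DH-LMP2A (edgeR adjusted p = 0.451), and -0.54 ± 0.36 (SE) for DH-LMP2A over WT (edgeR adjusted p = 0.572). LCDD lay above DH-LMP2A under 4 of 4 codes, by 0.03 to 1.31. Against WT, LCDD differed by 0.20 ± 0.36 (SE; edgeR adjusted p = 0.928).

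Of the T-region genes, H2-T23 (chromosome 17, 36029773 to 36032855, minus strand) encodes Qa-1, a ligand of an inhibitory receptor on natural killer cells. It was at 192, 182, 189 and 132 CPM in LCDD, at 204, 133, 219 and 144 CPM in DH-LMP2A and at 127, 594, 177, 214 and 203 CPM in WT. The LCDD and DH-LMP2A ranges overlapped, and LCDD over DH-LMP2A gave -0.0081 ± 0.39 (SE) on the log2 scale (edgeR adjusted p = 0.995). LCDD over WT gave -0.60 ± 0.38 (SE; edgeR adjusted p = 0.620) and DH-LMP2A over WT -0.59 ± 0.37 (SE; edgeR adjusted p = 0.548). Over all alternatives the fold change against WT of LCDD ran from -1.08 to -0.082 and that of DH-LMP2A from -1.05 to -0.057.

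H2-T22 (chromosome 17, 36037128 to 36042747, minus strand), whose product is bound by a subset of gamma delta T cells, was at 122, 84.0, 68.5 and 68.0 CPM in LCDD, at 99.1, 63.0, 76.0 and 68.0 CPM in DH-LMP2A and at 61.7, 202, 77.7, 90.0 and 85.7 CPM in WT. Replicate 1 was the highest library in LCDD and in DH-LMP2A and the lowest in WT. Its log2 fold change was 0.16 ± 0.33 (SE) for LCDD over DH-LMP2A (edgeR adjusted p = 0.886), -0.27 ± 0.31 (SE) for LCDD over WT (edgeR adjusted p = 0.851) and -0.43 ± 0.31 (SE) for DH-LMP2A over WT (edgeR adjusted p = 0.603).

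The order of the genes by level was compared per kilobase of exon. B2m ranked 1 in all 3 genotypes, at 1188 CPM per kilobase in LCDD, 714 in DH-LMP2A and 1035 in WT. H2-Q6 ranked 2 in LCDD and WT, at 1074 and 983 CPM per kilobase, above H2-D1 at 409.6 and 521, but its range overlapped with both neighbours in that order. In DH-LMP2A H2-Q6 ranked 7 at 14.6 CPM per kilobase, a rank the choice of the gene already fixes. H2-Q1 and H2-Q2 were the lowest pair in LCDD and WT, at 4.32 to 7.29 CPM per kilobase. Neighbours in this order whose ranges did not overlap were H2-Q4 above H2-T23, H2-T23 above H2-T22 and H2-T22 above H2-Q2 in LCDD, H2-K1 above H2-T23 and H2-Q4 above H2-T22 in DH-LMP2A, and H2-T22 above H2-Q1 in WT.

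**Figure D3:**
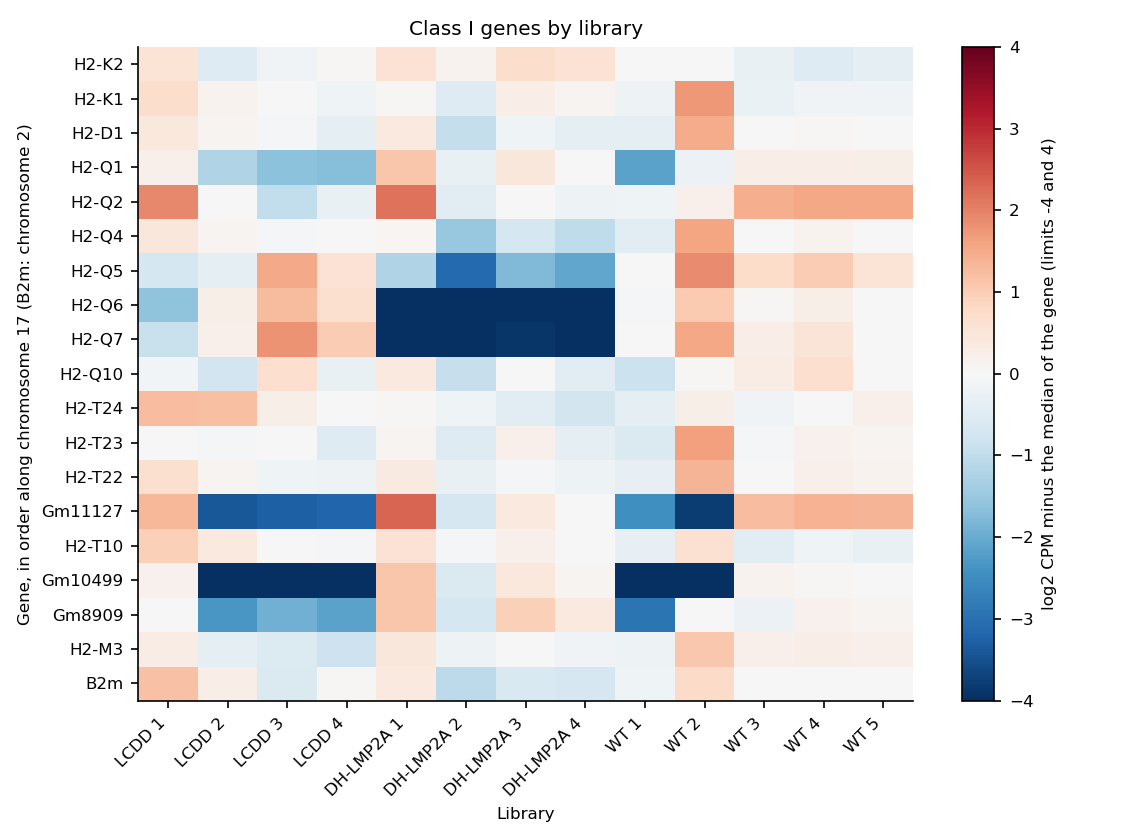
Log2 CPM of 19 class I and class I-like genes, minus the median of each gene, in the 13 libraries (columns); rows follow chromosome 17, with B2m last, and colours are limited at -4 and 4. The dark block at H2-Q6 and H2-Q7 covers the 4 DH-LMP2A libraries, and H2-Q5 is lower there to a smaller degree.

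Among the members, correlations of levels over the 13 libraries are given as a description of libraries that share genotype or title code. The Pearson correlation of log2 CPM was 0.988 between H2-Q6 and H2-Q7. Both genes were chosen for their loss in the same DH-LMP2A libraries, so nothing is read from this value. Every correlation with H2-Q6 or H2-Q7 given here includes those libraries. The correlation was 0.948 between H2-D1 and H2-T22, 0.930 between H2-D1 and H2-Q4 and 0.882 between H2-K1 and H2-D1. H2-Q4 also had a correlation of 0.702 with H2-Q6 and 0.684 with H2-Q7. H2-Q1 and H2-Q2 had a correlation of 0.723 with each other and of -0.515 and -0.063 with H2-Q7, and H2-Q2 had one of 0.613 with B2m. H2-K1 had a correlation of 0.253 with H2-Q7.

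The genes whose log2 CPM was most like that of H2-Q7, among 14516 genes whose mean level reached 1 CPM and over 13 libraries, were Rpl26 (Pearson correlation 0.952), H2-Q5 (0.940), Pcdhga11 (0.926), Mylk3 (0.926) and Ttf2 (0.914). All of them were low in DH-LMP2A, as that likeness requires: Rpl26, a ribosomal protein gene on chromosome 11, was at 40.0 to 61.5 CPM there and at 88.8 to 295 CPM in the other libraries. Over the 9 LCDD and WT libraries alone the correlation with H2-Q7 was 0.775 for Rpl26, 0.871 for H2-Q5 and 0.444 for Mylk3. Among the genes most like H2-K1 were Tap1 (0.970), a subunit of the peptide transporter, Igtp (0.951), an interferon-induced GTPase, Irf7 (0.935), an interferon regulatory factor, and Hexa (0.933), a lysosomal enzyme. Without WT replicate 2 these correlations were 0.884 for Tap1, 0.811 for Igtp, 0.759 for Irf7 and 0.770 for Hexa.

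The rest of the pathway was read from lists of genes written down with earlier results of these data known. Of the 14 genes of peptide supply and loading, which include the proteasome and transporter subunits, edgeR and DESeq2 each called 0 in every comparison, and 0 had an unadjusted edgeR p under 0.05, beside the counts over all genes given above. Their median log2 fold change was 0.25 for LCDD over DH-LMP2A, -0.12 for LCDD over WT and -0.35 for DH-LMP2A over WT, beside -0.0061, 0.010 and 0.00089 for all genes tested. Tap1 was at 79.4, 60.4, 53.5 and 47.6 CPM in LCDD, at 46.4, 36.0, 53.0 and 46.4 CPM in DH-LMP2A and at 37.2, 191, 39.6, 52.4 and 46.4 CPM in WT, so WT replicate 2 was again the highest. Of the 12 regulators of class I transcription edgeR and DESeq2 also called 0, with 0, 1 and 0 at an unadjusted edgeR p under 0.05 and medians of 0.10, -0.010 and -0.15 in the same order.

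Of the 26 interferon response genes edgeR called 0 in each comparison, the smallest adjusted p being 0.0515 for LCDD over DH-LMP2A, and 11, 2 and 5 had an unadjusted p under 0.05 in the order LCDD over DH-LMP2A, LCDD over WT and DH-LMP2A over WT, beside 2193, 2002 and 2085 of all 16738 genes. DESeq2, which gave an adjusted p for 22 of them, called 3, 1 and 1, beside 726 of all genes for LCDD over WT. With the title code as a block, edgeR called 2 as higher in LCDD than in DH-LMP2A, beside 1021 of all genes. All 26 fold changes were positive for LCDD over DH-LMP2A, with a median of 0.93, and all 26 were negative for DH-LMP2A over WT, with a median of -0.63. For LCDD over WT the median was 0.21. Without WT replicate 2 the median was 0.83 for LCDD over WT, with 8 genes called, and -0.011 for DH-LMP2A over WT, with 0 called. Across the alternatives the calls over all genes ran from 54 to 726 and from 29 to 562 in these 2 comparisons. Nothing is therefore read from the count of 8. The mean log2 CPM of the list was 5.86, 5.33, 4.82 and 4.92 in LCDD, 4.71, 4.07, 4.52 and 4.32 in DH-LMP2A and 4.37, 6.43, 4.32, 4.62 and 4.44 in WT. Each LCDD library was above each DH-LMP2A library, and without WT replicate 2 the WT libraries lay inside the DH-LMP2A range. H2-K1 followed this order at its upper end, in WT replicate 2 and LCDD replicate 1, while H2-Q7 in LCDD ran the other way, lowest in the library with the highest interferon mean. Summed leukocyte markers were 173 to 369 CPM in LCDD, 122 to 282 CPM in DH-LMP2A and 135 to 465 CPM in WT, with the highest value in WT replicate 2, and all 18 markers had counts in every library. The part of leukocyte content in the class I levels was not tested.

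**Figure D4:**
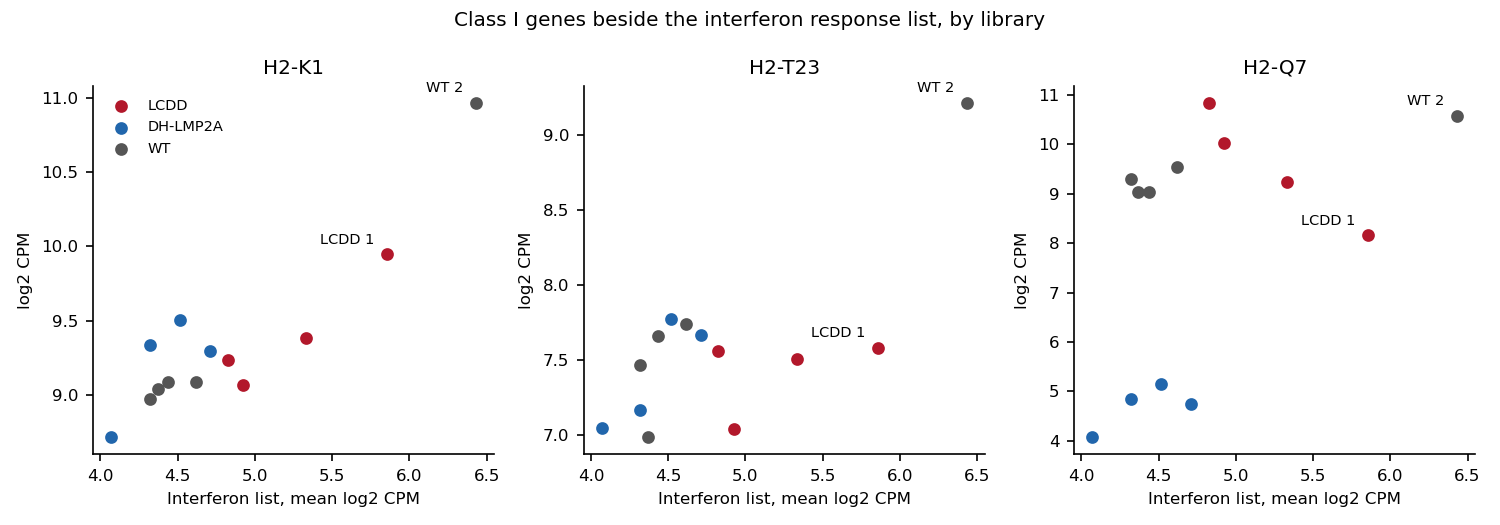
Log2 CPM of H2-K1, H2-T23 and H2-Q7 (vertical axes) against the mean log2 CPM of 26 interferon response genes (horizontal axes) in the 13 libraries, coloured by genotype. WT replicate 2, at an interferon mean of 6.43, is highest for H2-K1 and H2-T23, and the DH-LMP2A libraries lie apart only for H2-Q7.

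Other class I and class I-like genes were looked at next to the members. Of 30 listed, 26 were in the table and 21 were tested. Of these, edgeR called 2 in LCDD over DH-LMP2A, beside 2.00% of all genes, and 2 in DH-LMP2A over WT, beside 0.627%. They were H2-Q5 and Gm19684 in both comparisons, which share the DH-LMP2A libraries. Gm19684 passed the filter only through LCDD and WT libraries, so nothing is read from these counts. In LCDD over WT edgeR called 0 and DESeq2 called 1. An unadjusted edgeR p below 0.05 was reached by 6 genes in LCDD over DH-LMP2A, 5 in LCDD over WT and 4 in DH-LMP2A over WT. Beside these stand 2193, 2002 and 2085 of all 16738 genes. In LCDD over DH-LMP2A, the title code as a block added a call for H2-T24 as higher in LCDD (log2 fold change 1.03, edgeR adjusted p = 0.0364). H2-Q5 (chromosome 17, 35394126 to 35397800), annotated as a polymorphic pseudogene and lying between H2-Q4 and H2-Q6, was at 45.9, 57.5, 212 and 112 CPM in LCDD, at 32.3, 8.59, 21.8 and 17.4 CPM in DH-LMP2A and at 74.5, 279, 124, 149.99 and 108 CPM in WT. Its DH-LMP2A libraries lay below all others. The log2 fold change was 2.41 ± 0.55 (SE) for LCDD over DH-LMP2A (edgeR adjusted p = 0.0417) and -2.88 ± 0.54 (SE) for DH-LMP2A over WT (edgeR adjusted p = 0.0345). The call was kept in 10 of 22 alternatives for the first and 13 of 22 for the second, and was lost without DH-LMP2A replicate 2, 3 or 4 in both. Of its 75-base windows 16.4% occur in H2-Q7 as well, so reads of H2-Q7 counted as H2-Q5 cannot be told apart from its own.

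Gm19684 (chromosome 17, 36121678 to 36129692), a predicted gene, had 39, 42, 36 and 58 counts in LCDD, 0 counts in each DH-LMP2A library and 7, 33, 13, 10 and 6 counts in WT. Against a floor of 3 counts per DH-LMP2A library, which covers counting error only, it was at least 3.79 higher in LCDD and at least 2.39 higher in WT on the log2 scale. The edgeR adjusted p was 0.00809 and 0.0420. The first call was kept in 21 of 21 alternatives and the second in 8 of 20. With 0 counts in DH-LMP2A, Gm19684 passed the filter on low counts only through LCDD and WT libraries. These calls are therefore a description and lend no support. Gm19684 overlaps Gm7030 on the other strand, so its counts may include reads of that gene.

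The stretch of chromosome 17 around the locus, with gene starts from -1901 to 1845 kb of the start of H2-Q6, held 163 tested genes, 161 of them besides H2-Q6 and H2-Q7. In LCDD over DH-LMP2A edgeR called 5 of the 161, or 3.11% beside 2.00% of all genes, each of them higher in LCDD: Gm19684, Tcf19, Kifc1, H2-Q5 and Gm20478. In LCDD over WT it called 3, or 1.86% beside 1.84%, namely Kifc1, Tcf19 and Gm20478. In DH-LMP2A over WT it called 3, or 1.86% beside 0.627%: H2-Q5 and Gm19684 as lower and Tnxb, which encodes the matrix protein tenascin X, as higher (log2 fold change 1.38 ± 0.25, SE; edgeR adjusted p = 0.0295). Kifc1, a kinesin motor gene, was higher in LCDD by 1.18 ± 0.25 (SE) against DH-LMP2A (edgeR adjusted p = 0.0334) and by 1.55 ± 0.24 (SE) against WT (edgeR adjusted p = 0.00560). These calls were kept in 9 of 21 and 20 of 21 alternatives, and that of Tnxb in 15 of 22. The tested H2-K1, H2-D1, H2-T22 and H2-T23 of this stretch were not called. The counts of 5 and 3 in the comparisons with DH-LMP2A include Gm19684, which passed the filter only through LCDD and WT libraries. They also include H2-Q5, which shares windows with H2-Q7, so nothing is read from these shares beside those of all genes.

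**Figure D5:**
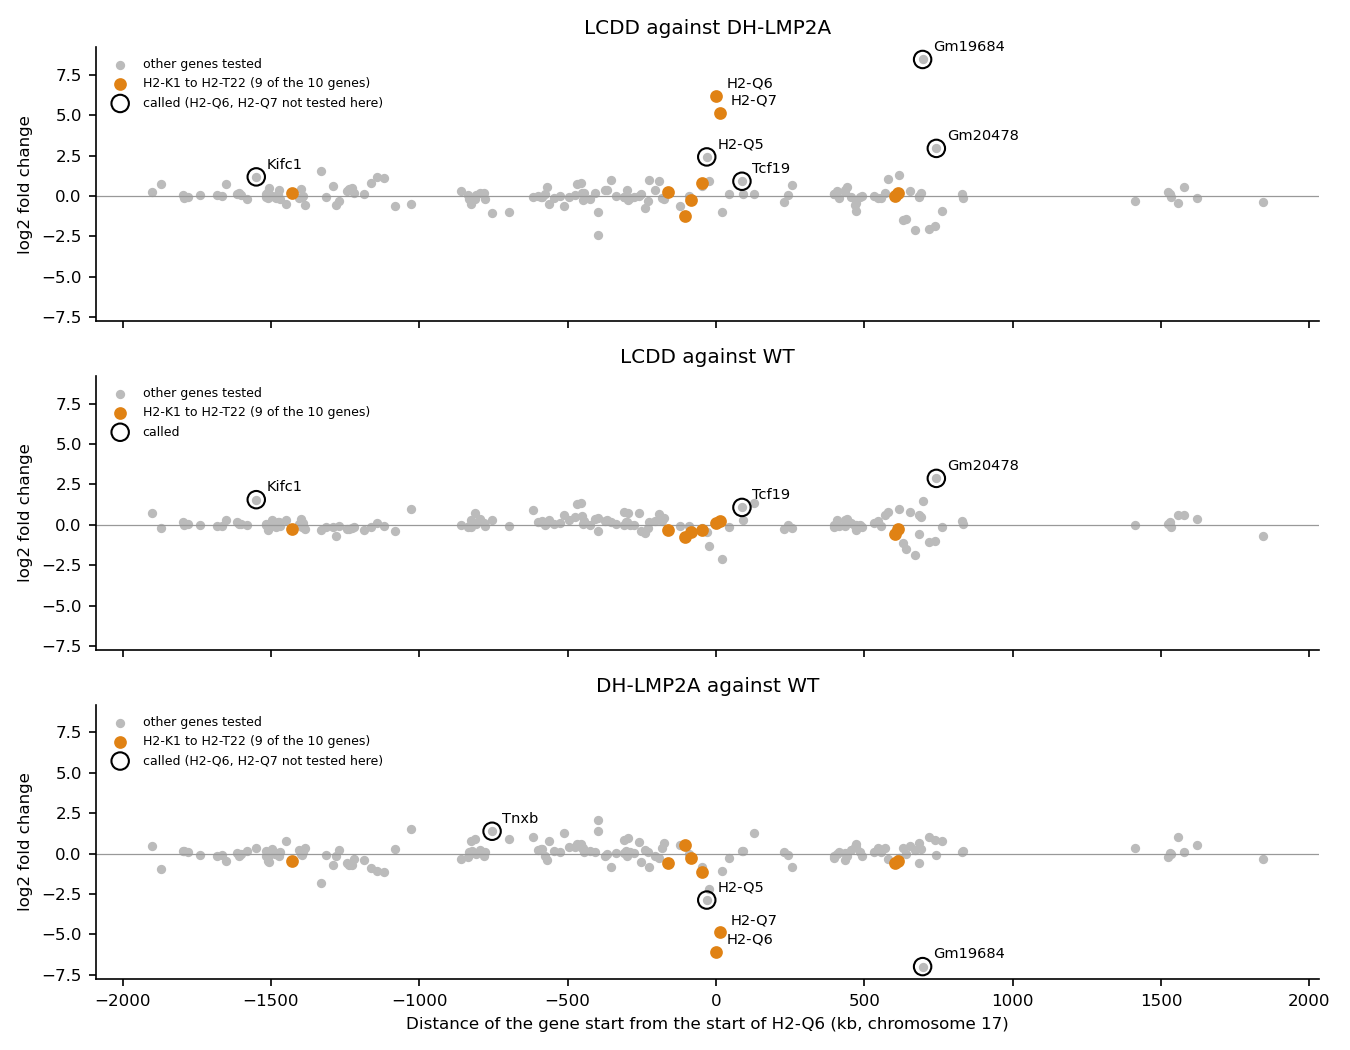
Log2 fold change of the 163 tested genes on chromosome 17 (vertical axes) by the distance of the gene start from that of H2-Q6 (horizontal axis, kb), with 1 panel per comparison; the class I genes of the set are orange and called genes are circled. H2-Q6 and H2-Q7 stand near 6.20 and 5.14 in the top panel and near -6.07 and -4.88 in the bottom panel, and near 0 in the middle panel; Gm19684, at 0 counts in DH-LMP2A, is drawn at its fitted value, which is no bound.

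Cell type markers were listed to set beside these values. Of the 7 podocyte markers 1 was called, Ptpro, lower in LCDD than in WT (log2 fold change -2.13 ± 0.41, SE; edgeR adjusted p = 0.0176). Of the 4 mesangial markers Serpine2 was called, higher in LCDD than in DH-LMP2A (1.29 ± 0.30, SE; edgeR adjusted p = 0.0446), and of the 7 proximal tubule markers Kap was called, higher in DH-LMP2A than in WT (3.85 ± 0.78, SE; edgeR adjusted p = 0.0479). These 3 calls were kept in 18, 8 and 8 of 22 alternatives. The calls of Ptpro and Kap are against WT, whose libraries differ in sex composition from the others, and the part of sex was not tested. In LCDD over DH-LMP2A, the title code as a block added calls that included the podocyte marker Nphs1 as lower and the mesangial marker Itga8 and the leukocyte marker Cd53 as higher in LCDD. In the main fit the 7 endothelial markers and the 18 leukocyte markers had 0 edgeR calls in each comparison, with 0, 0 and 4 endothelial and 2, 2 and 5 leukocyte markers at an unadjusted p under 0.05, beside 2193, 2002 and 2085 of all 16738 genes, and DESeq2 called 0 endothelial markers and 1, 0 and 1 leukocyte markers. In DH-LMP2A over WT, edgeR with the block called the endothelial markers Cdh5 (-1.19, adjusted p = 0.0341), Flt1 (-1.21, 0.0395) and Kdr (-1.40, 0.0493) as lower. It did not call Pecam1, Ehd3, Tek or Emcn, and it called 562 of all genes. The endothelial and leukocyte lists had median log2 fold changes for DH-LMP2A over WT of -0.80 and -0.78, beside -0.49 for the 8 class I genes other than H2-Q6 and H2-Q7. The part of endothelial or leukocyte content in those class I values was not tested.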

How the data were processed

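Stranded poly(A) libraries of total RNA from bead-purified glomeruli were sequenced from both ends, per the labels' protocols. The deposited table holds raw counts per gene, which the authors made with STAR 2.4.0a and featureCounts of Subread 1.5.0-p3 on mm10/GRCm38, per the submitters' processing notes. The strand setting and the annotation are not given in the sources used here. The deposited exon lengths gave CPM per kilobase. Samples were grouped by the labelled genotype, and 0 columns of counts were left over.

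The test was that of edgeR 4.0.16 (R 4.3.3): filterByExpr by genotype with a minimum count of 10 (16738 genes kept, 30220 dropped), TMM factors, 1 quasi-likelihood fit of all 13 libraries with 1 coefficient per genotype, and Benjamini-Hochberg adjustment over all of these genes. Called means an adjusted p under 0.05. SE was computed from the log2 fold change and the F statistic. Log2 CPM uses a prior count of 2. The script was tested on simulated data. DESeq2 1.42.0, other scalings, filters, left-out libraries and the title code as a block were alternatives. Same-code LCDD and DH-LMP2A libraries deviated together from their genotype means, with correlations of 0.153 to 0.593 over 4 pairs (mean 0.421, other pairs -0.139). Deviations from a genotype mean cancel within each genotype. The mean of the other pairs therefore nearly follows from that of the same-code pairs and adds no support, also for the pairs with WT given below. Of 4 LCDD libraries 3 correlated best with their own code, but some other pairs were as high. LCDD replicate 2 had 0.524 with DH-LMP2A replicate 1, LCDD replicate 3 had 0.458 with DH-LMP2A replicate 4, and LCDD replicate 4 had 0.419 with DH-LMP2A replicate 3. The code was taken to pair these libraries, but the main fit leaves it out and only the block uses it.

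The 10 genes and all lists were chosen with earlier results of these data known. Named besides them are called genes of the lists and of the chromosome 17 window, and the 5 genes most like H2-Q7 and H2-K1, of which 1 is not reported here. Windows of 75 bases were taken from GENCODE M21 transcripts, and promoters were compared by local alignment. A floor of 3 counts was used for levels of 0, and it covers counting error only.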

Additional observations from a re-analysis of the deposited data

Results flagged for a closer look

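Within each genotype, the library farthest from the others was set against the whole range of its group (Dixon's test), for log2 CPM of the 10 genes and for the mean of 3 lists. Of 39 groups 10 stood out, where chance gives 1.95. WT replicate 2 was high for H2-K1 at 10.97 (the other WT libraries at 8.97 to 9.09), for H2-D1 at 11.47 (9.61 to 10.04), for H2-Q4 at 9.51 (7.48 to 8.05), for H2-Q6 at 11.72 (10.63 to 10.92) and for B2m at 10.40 (9.46 to 9.66). The same library was high for the mean of the interferon response list at 6.43 (4.32 to 4.62) and of the peptide supply and loading list at 7.44 (6.49 to 6.76). These 7 values come from 1 library.

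The other 3 values belong to other libraries. H2-Q1 was low in WT replicate 1 at 2.34 (the other WT libraries at 4.27 to 4.76). H2-Q2 was high in DH-LMP2A replicate 1 at 5.04 (the others at 2.43 to 2.87). H2-T23 was low in LCDD replicate 4 at 7.04 (the others at 7.51 to 7.58).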

How the results depend on the processing

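The count of class I genes called, which leaves out H2-Q6 and H2-Q7 in the comparisons with DH-LMP2A, was 0 in each comparison and in each alternative but 1. Without the 3 libraries of the first title code, added after the data were seen, it was 1 for LCDD against DH-LMP2A (H2-Q1) and 2 for LCDD against WT (H2-Q1, H2-Q2), and H2-Q6 was 6.996 for LCDD over DH-LMP2A. Those calls lend no support, as that setting leaves out the highest LCDD and the lowest WT library for H2-Q1 and H2-Q2. With the code as a replicate block the count of class I genes called was 0 in all 3 comparisons, and H2-T23 was 0.016 for LCDD over DH-LMP2A. In DH-LMP2A over WT the block also called H2-K2 as higher (0.83, edgeR adjusted p = 0.0180) and Ifi44 as lower (-1.05, 0.0351). There it called the endothelial markers Cdh5, Flt1 and Kdr and the podocyte marker Ptpro as lower too. Xaf1 (1.36, edgeR adjusted p = 0.0267) and Kap were called with the block as higher in LCDD than in WT. Same-code pairs with WT had correlations from -0.165 to 0.400 for LCDD (mean 0.214, other pairs -0.072) and from -0.159 to 0.568 for DH-LMP2A (mean 0.298, other pairs -0.091), lowest with WT replicate 5. Not every pair was over 0.1, so the code was not taken to pair them. Each library correlated best with its own code for 2 of 3 LCDD and 2 of 3 DH-LMP2A libraries. Over the whole table the calls ranged from 113 to 1021 around 334 for LCDD against DH-LMP2A, from 54 to 726 around 308 for LCDD against WT and from 29 to 562 around 105 for DH-LMP2A against WT. The highest were with the block (1021, 562) and DESeq2 (726), and the lowest without DH-LMP2A replicate 2 (113, 29) or the 3 single-mouse WT libraries (54).

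Signs changed for the following fold changes, none of them called in the fit of all 13 libraries. Without both WT replicate 2 and LCDD replicate 1, LCDD over DH-LMP2A was -0.013 for H2-K1 and -0.065 for H2-T22, LCDD over WT was 0.16 for H2-K1, 0.053 for H2-Q4 and -0.031 for B2m, and DH-LMP2A over WT was 0.18 for H2-K1. Without the single-mouse WT libraries, LCDD over WT was 0.015 for H2-Q1, 0.55 for H2-Q2, -0.17 for H2-Q6, -0.15 for H2-Q7 and -0.042 for B2m, and DH-LMP2A over WT was 0.82 for H2-Q2. Without the first code, B2m was -0.29 for LCDD over WT, H2-T23 was 0.023 for LCDD over DH-LMP2A and H2-Q1 was -0.070 for DH-LMP2A over WT. With 1 replicate left out (or WT replicate 2 and LCDD replicate 1 together), LCDD over DH-LMP2A ran from -0.013 to 0.31 for H2-K1, from -1.23 to 0.82 for H2-Q2, from -0.065 to 0.31 for H2-T22 and from -0.12 to 0.12 for H2-T23. LCDD over WT ran from -0.45 to 0.36 for H2-K1, from -0.49 to 0.087 for H2-D1 and for H2-T22, from -0.47 to 0.17 for H2-Q4, from -0.29 to 0.68 for H2-Q6, from -0.29 to 0.91 for H2-Q7 and from -0.21 to 0.41 for B2m. DH-LMP2A over WT ran from -0.59 to 0.18 for H2-K1 and from -1.30 to 0.022 for H2-Q2. The cause was not tested.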

Other observations

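Gm10499 and Gm11127, class I-like genes of the T region that the fit of all 13 libraries did not call, were chosen here after their values were seen, because their levels split each of 2 genotypes. Gm10499, annotated as a transcribed pseudogene, was at 32.2, 0.979, 1.40 and 0.868 CPM in LCDD replicates 1 to 4, at 61.8, 19.2, 38.1 and 30.6 CPM in DH-LMP2A and at 0.874, 1.30, 31.6, 29.5 and 28.6 CPM in WT. Gm11127 was at 24.1, 0.828, 0.916 and 0.986 CPM in LCDD, at 48.8, 5.93, 12.5 and 9.58 CPM in DH-LMP2A and at 1.68, 0.618, 22.6, 25.4 and 24.6 CPM in WT. For both genes LCDD replicates 2 to 4 and the 2 pooled WT libraries were low, and LCDD replicate 1, the 4 DH-LMP2A libraries and the 3 single-mouse WT libraries were high. H2-Q1 was low in 4 of those 5 libraries and at 19.2 CPM in the other, WT replicate 2, whereas H2-Q6 was lost only in the DH-LMP2A libraries. Without the 3 libraries of the first title code, edgeR called Gm10499 and Gm11127 as lower in LCDD than in WT, a setting added after the data were seen. It leaves out LCDD replicate 1, the high LCDD library, and WT replicate 1, a low WT library. These calls are therefore a description and lend no support. Gm11127 overlaps Gm6034 and Gm10499 overlaps 2410017I17Rik, both on the other strand.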
